A study of Mus musculus with 4 samples.

Results

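The genes described here encode the collagens, elastin with the proteins of elastic fibres, and the lysyl oxidases that cross-link both, together with the matrix protease Adamts4 and the matrix protein Spon2. They were taken by gene symbol from the deposited table, as every collagen chain gene of the form Col1a1 plus 16 named genes. That rule matched 60 rows, and the 52 with a mean of at least 0.5 CPM, a gene's count scaled to a common library size, over the libraries were kept, 36 collagens and 16 others. The table holds 24016 rows in all, of which 15289 reach the same mean. The list was put together with earlier results of these libraries known, so all counts and medians over it are descriptions, and nothing is tested on it.

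Colon tissue was taken from C57BL/6 mice raised germ-free, that is without microbes, and 7 weeks old. One library each was made for untreated mice, for mice gavaged with phosphate-buffered saline (PBS), for mice gavaged with Escherichia coli, and for mice gavaged with the probiotic Lactobacillus rhamnosus GG (LGG), both bacteria at the same labelled dose. Colon pieces of 4 cm were frozen 4 h after gavage. The labels give 4 mice for each gavaged group, state no time for the untreated mice, and do not say whether RNA was pooled or which stretch of colon was cut. With 1 library per group no difference has a replicate check, and each interval below is a 95% counting interval for the libraries, not for the conditions.

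Collagens are built from 3 chains wound into a triple helix. Fibril-forming collagens give tissue its tensile strength, collagen IV makes the sheet of the basement membrane, and collagen VI makes fine filaments around cells. Elastin is laid down on fibrillin microfibrils with the help of fibulins and recoils after stretch. Lysyl oxidases oxidise lysines so that collagen and elastin molecules bond to each other. In the gut wall these genes are mainly active in fibroblasts, smooth muscle and vessel cells of the submucosa, muscle layers and serosa.

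Total counts ranged from 16289580 in the PBS library to 29899371 in the LGG library. Epithelial markers (7 of 7 above the mean of 0.5 CPM) summed to 10524 CPM in the untreated library and 11920 to 12657 in the gavaged ones, and smooth muscle markers (8 of 8) to 12647 and 10601 to 11620. Colon genes were abundant in all libraries, for example Muc2 at 8174 to 10513 CPM and Slc26a3 at 859 to 1673 CPM. Pancreatic acinar markers (6 of 6), which mark no cell of the colon, summed to 0.806 CPM untreated, 13.7 with PBS, 50.8 with E. coli and 27.3 with LGG. No library could be checked against a targeted gene, since none was altered.

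Across the 52 genes, the untreated library held the most matrix transcript. The summed level was 5102 CPM (5075 to 5128) in the untreated library, 4156 (4124 to 4188) after PBS, 4498 (4474 to 4523) after E. coli and 3988 (3965 to 4011) after LGG, which is 0.510%, 0.416%, 0.450% and 0.399% of each library. The untreated library was the highest of the 4 for 42 of the 52 genes, against 33.8% of all 15289 genes, and the LGG library was the lowest for 29, against 23.8%. Each gavaged library is set here against the same untreated library, so the 3 comparisons are not separate evidence. In bulk tissue, fewer cells of a type and less RNA per cell cannot be told apart.

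Collagen III led the list by level per transcript length. Col3a1 averaged 183 CPM per kb of transcript, followed by Col1a2 at 89.9, Col6a1 at 75.2, Col1a1 at 72.9, Col6a2 at 67.6, Col4a1 at 49.7 and Fbln1 at 41.9. At the other end lay Col4a3 at 0.144 and Col4a4 at 0.0837 CPM per kb. Of the 8 genes left out, the most abundant was Col22a1, with a mean of 0.40 CPM, and the least abundant gene kept was Col4a4, with 0.655. The genes left out were Col2a1, Col10a1 and Col9a1 of cartilage, the hemidesmosome collagen Col17a1, and Col6a6, Col19a1, Col22a1 and Col26a1. Col2a1 had 0 counts in the LGG library, and Col10a1 had 0 in the LGG and E. coli libraries, which allows up to 0.103 CPM with E. coli and 0.1025 CPM with LGG. Adamts4, Col4a4 and Col9a3 were kept although each was under 0.5 CPM in at least 1 gavaged library. Adamts4 was near 0.5 CPM in all of these.

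**Figure D1:**
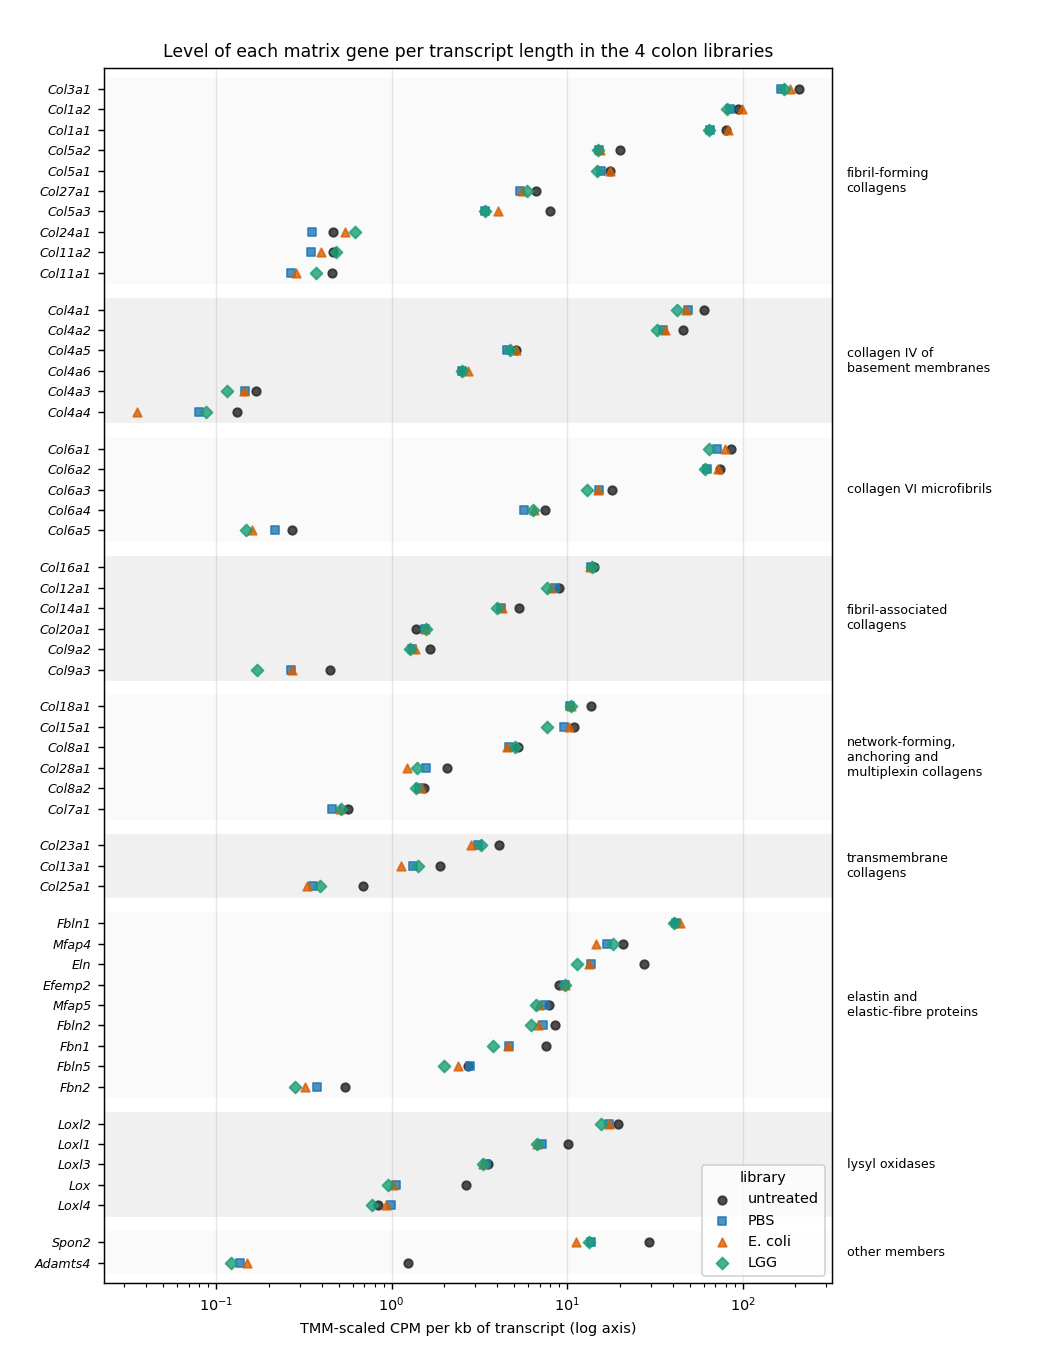
Level of each of the 52 genes in the 4 libraries, in TMM-scaled CPM per kb of transcript on a log axis, grouped by role. The untreated library (black circles) is the rightmost point for 42 genes, with wide gaps to the other libraries at Adamts4, Lox, Col5a3, Spon2 and Eln.

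The summed level of the fibril-forming collagens, the main tensile proteins, was alike in the PBS and LGG libraries and higher in the untreated and E. coli libraries. The 10 kept genes summed to 2389 CPM (2371 to 2407) untreated, 1945 (1924 to 1967) with PBS, 2236 (2219 to 2254) with E. coli and 1956 (1940 to 1972) with LGG. By gene, 7 of the 10 were below the untreated library in E. coli, against 49.6% of all genes. The median log2 ratio of the 10 was -0.19 there. Col3a1, the chain of collagen III (NM_009930, chromosome 1, 45368383 to 45406551 in mm9), was at 1154 CPM untreated, 912 with PBS, 1028 with E. coli and 944 with LGG. Its log2 ratio to the untreated library was -0.34 (-0.37 to -0.31) after PBS, -0.17 (-0.19 to -0.14) after E. coli and -0.29 (-0.31 to -0.27) after LGG. Col1a1, which encodes the α1 chain of collagen I (NM_007742, chromosome 11, 94797584 to 94813170 in mm9), was at 373, 302, 383 and 298 CPM in the same order. The untreated and E. coli libraries thus stood together, with PBS and LGG below them. Col1a2, the α2 chain, had the same order at 476, 434, 504 and 417 CPM. The log2 ratio of E. coli to untreated was 0.04 (0.00 to 0.08) for Col1a1 and 0.08 (0.05 to 0.12) for Col1a2, and both were below 0 when libraries were scaled by their totals. After PBS it was -0.31 (-0.35 to -0.26) for Col1a1 and -0.13 (-0.18 to -0.09) for Col1a2, and after LGG -0.33 (-0.37 to -0.28) and -0.19 (-0.23 to -0.16).

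The minor fibrillar chains did not all follow collagen I. Col5a1 and Col5a2 encode collagen V, which sits inside collagen I fibrils and limits their width. Col5a1 was at 147 CPM untreated, 130 with PBS, 146 with E. coli and 124 with LGG, again with the E. coli library near the untreated one. Col5a2, by contrast, was at 131 CPM untreated and 98.2 to 101 after gavage. Col5a3, a further chain of this collagen (NM_016919, chromosome 9, 20574494 to 20619478 in mm9), stood furthest apart, at 48.2 CPM untreated, 20.4 with PBS, 24.4 with E. coli and 20.5 with LGG. Its log2 ratios to the untreated library were -1.24 (-1.42 to -1.06), -0.98 (-1.11 to -0.85) and -1.23 (-1.37 to -1.09). All gavaged libraries lay well under the untreated one, and E. coli lay a little above the other two.

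Among the scarcer fibrillar genes, Col27a1 was at 40.8 to 50.1 CPM. Col11a1 was at 3.29 CPM untreated, 1.93 with PBS, 2.07 with E. coli and 2.67 with LGG, and Col11a2 at 2.56, 1.93, 2.20 and 2.67. Col11a1, whose protein shares fibrils with collagen V, had log2 ratios to the untreated library of -0.76 (-1.40 to -0.17) after PBS, -0.67 (-1.17 to -0.19) after E. coli and -0.30 (-0.76 to 0.14) after LGG. Col24a1 was the one member with a ratio of 1.5-fold or more above PBS. It had 94 counts untreated, 40 with PBS, 112 with E. coli and 128 with LGG, or 3.29, 2.49, 3.86 and 4.37 CPM, so the PBS value was the low one. Its log2 ratio to PBS was 0.81 (0.29 to 1.36) in LGG and 0.62 (0.10 to 1.19) in E. coli.

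The 150 bases upstream of the RefSeq transcript start (build GRCm38.p6, from RefSeq) are shown for 4 of these genes, chosen as pairs. In the first pair (Col1a2, Col3a1) the E. coli library was close to the untreated one or between it and PBS. The second pair (Fbn1, the fibrillin gene described below, and Col5a3) was lower in all gavaged libraries. These descriptions overlap, since Col3a1 was also lower in all gavaged libraries, and for Col5a3 E. coli also lay between untreated and PBS. The pairs differ in size of the ratio. E. coli against untreated gave a log2 ratio of 0.08 for Col1a2, -0.17 for Col3a1, -0.73 for Fbn1 and -0.98 for Col5a3. Capitals mark matches, on either strand, to CCAAT, to TATAAA, to the GC box GGGCGG or to TGACNNNGC, a short form of the antioxidant response element bound by Nrf2, the factor named in the title of the series. The windows are chr6:4505468-4505617 on the plus strand for Col1a2, chr1:45311388-45311537 on the plus strand for Col3a1, chr2:125506439-125506588 on the minus strand for Fbn1 and chr9:20815068-20815217 on the minus strand for Col5a3.
Col1a2: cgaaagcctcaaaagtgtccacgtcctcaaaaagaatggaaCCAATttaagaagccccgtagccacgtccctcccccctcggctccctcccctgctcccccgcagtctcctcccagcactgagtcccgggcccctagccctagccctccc
Col3a1: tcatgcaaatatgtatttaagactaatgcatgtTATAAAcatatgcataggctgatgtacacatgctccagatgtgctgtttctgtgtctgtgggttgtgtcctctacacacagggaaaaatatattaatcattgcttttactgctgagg
Fbn1: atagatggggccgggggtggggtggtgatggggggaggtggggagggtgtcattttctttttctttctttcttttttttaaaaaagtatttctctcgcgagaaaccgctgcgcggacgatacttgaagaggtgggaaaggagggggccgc
Col5a3: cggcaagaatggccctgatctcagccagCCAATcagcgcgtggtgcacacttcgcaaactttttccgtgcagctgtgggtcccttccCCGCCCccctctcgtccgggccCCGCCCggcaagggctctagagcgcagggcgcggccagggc

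The printed windows share no single motif. Col1a2 holds CCAAT from base 109 to base 105 before the start, Col5a3 holds it from 122 to 118 and also has a pair of GC boxes, Col3a1 holds TATAAA, and the Fbn1 window holds none of the searched letters. Windows of this kind were listed for 36 of the 52 genes, 42 windows in all. Among them 25 held the GC box, 7 CCAAT, 2 TATAAA and 6 the Nrf2 motif. Over all 32851 listed windows of the same length the shares were 28.6%, 24.5%, 7.57% and 6.8%. The 6 windows with the Nrf2 motif belonged to Col24a1, Col4a2, Col6a2, Col6a5, Col7a1 and Col9a2. A match is a run of letters and not a site shown to be used.

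Collagen IV, the sheet-forming collagen of basement membranes, was lower in every gavaged library for its main chains and lowest after LGG. Col4a1 (NM_009931, chromosome 8, 11198423 to 11312826 in mm9) was at 394 CPM untreated, 322 with PBS, 312 with E. coli and 278 with LGG. Its partner Col4a2 (NM_009932, chromosome 8, 11312829 to 11449287) was at 293, 226, 230 and 207 CPM. For both genes the log2 ratio of LGG to untreated was -0.50, with intervals of -0.54 to -0.46 and -0.55 to -0.45, short of a 1.5-fold difference. Scaled by library totals, both passed 1.5-fold. These genes are listed head to head with 2 bases between them, and the level of Col4a1 per length was 1.30 to 1.38 times that of Col4a2 in all libraries.

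Of the other collagen IV chains, Col4a5 and Col4a6 differed less from the untreated library than this pair. Col4a5, mutated in Alport syndrome, was at 33.1 CPM untreated, 29.4 with PBS, 32.9 with E. coli and 30.6 with LGG, and Col4a6 at 16.7, 16.6, 18.0 and 16.7. For Col4a6 all 6 intervals between libraries included 0. They too are listed head to head, 1342 bases apart on the X chromosome, and their ratio per length was 1.82 to 2.03. Col4a3 and Col4a4, 71 bases apart, were near the lower limit of the list, at 0.991 to 1.44 and 0.275 to 1.02 CPM. Col4a4 had 29 counts untreated, 10 with PBS, 8 with E. coli and 20 with LGG, or 1.02, 0.623, 0.275 and 0.683 CPM. The E. coli library was low for this gene, with a log2 ratio to the untreated library of -1.82 (-3.22 to -0.72), and LGG was above E. coli by 1.26 (0.07 to 2.70).

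Collagen VI filaments need the chains of Col6a1, Col6a2 and one more, most often Col6a3. Col6a1 was at 338 CPM untreated, 282 with PBS, 311 with E. coli and 253 with LGG, and Col6a2 at 274, 233, 268 and 225. For both genes the order was untreated, E. coli, PBS, LGG, the order seen for Col5a1. Col6a3 was at 195, 163, 163 and 140 CPM, so here E. coli was level with PBS. Col6a4 was at 55.2, 41.9, 47.6 and 47.4 CPM, lowest after PBS. Col6a5 was scarce, at 2.52, 1.99, 1.48 and 1.37 CPM, with log2 ratios to the untreated library of -0.88 (-1.48 to -0.31) after LGG and -0.76 (-1.35 to -0.20) after E. coli.

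The fibril-associated collagens, which decorate fibrils without forming them, included genes that hardly differed between libraries. Col16a1 was at 72.7 CPM untreated, 70.2 with PBS, 69.5 with E. coli and 71.3 with LGG, and all 6 of its intervals included 0. Col20a1 was at 5.75, 6.48, 6.40 and 6.49 CPM, all within counting error. Col12a1 was at 105 CPM untreated, 99.0 with PBS, 94.0 with E. coli and 89.5 with LGG. Col14a1 was at 34.2, 27.0, 27.3 and 25.5 CPM in that order, so both were lowest after LGG. For Col14a1 the gavaged libraries did not differ beyond counting error, and for Col12a1 LGG did not differ so from E. coli. Of the collagen IX chains, Col9a2 was at 3.45 to 4.48 CPM. Col9a3 was at 1.26, 0.748, 0.757 and 0.478 CPM. LGG against untreated gave a log2 ratio of -1.37 (-2.40 to -0.47) from 36 and 14 counts.

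Col18a1 and Col15a1 encode the multiplexins, basement membrane collagens that carry heparan or chondroitin sulfate chains. Col18a1, the source of endostatin, was at 76.3 CPM untreated and 58.3 to 58.6 in the gavaged libraries, which did not differ beyond counting error. Col15a1 was at 58.0 CPM untreated, 50.7 with PBS, 54.2 with E. coli and 40.7 with LGG, so LGG was lowest. Its log2 ratio was -0.32 (-0.45 to -0.19) in LGG against PBS and -0.41 (-0.52 to -0.30) in LGG against E. coli. Of the network-forming and anchoring genes, Col8a1 was at 26.8 CPM untreated, 23.7 with PBS, 23.1 with E. coli and 25.9 with LGG, Col8a2 at 5.95 to 6.59 and Col7a1 at 4.18 to 5.12. Col28a1, a collagen known from peripheral glia, was at 8.69 CPM untreated, 6.61 with PBS, 5.16 with E. coli and 5.88 with LGG. The enteric glia and neuron markers (7 of 7), whose part in this was not tested, summed to 87.8, 65.4, 57.6 and 68.7 CPM in that order.

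The 3 transmembrane collagens kept, which are anchored in the cell membrane, were highest in the untreated library. The E. coli value was the lowest, but among the gavaged libraries all their intervals included 0. Col25a1 was at 5.04 CPM untreated, 2.62 with PBS, 2.44 with E. coli and 2.87 with LGG. Its log2 ratios to the untreated library were -0.94 (-1.48 to -0.44), -1.04 (-1.48 to -0.63) and -0.81 (-1.22 to -0.42). Col13a1, found at neuromuscular and cell-matrix contacts, was at 5.40, 3.80, 3.24 and 4.07 CPM, and Col23a1 at 23.1, 17.6, 16.04 and 18.2 CPM.

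Elastin and the fibrillins were among the genes furthest below the untreated library. Eln, which encodes elastin (NM_007925, chromosome 5, 135178466 to 135223124 in mm9), was at 103 CPM untreated, 51.4 with PBS, 50.1 with E. coli and 42.9 with LGG. Its log2 ratio to the untreated library was -1.002 (-1.12 to -0.89) after PBS, -1.04 (-1.13 to -0.95) after E. coli and -1.26 (-1.36 to -1.17) after LGG. Fbn1, the gene of fibrillin-1 in the microfibril scaffold (NM_007993, chromosome 2, 125126330 to 125332174 in mm9), was at 75.0, 45.9, 45.3 and 37.4 CPM. The PBS and E. coli libraries were level for both genes, and LGG was lower than either. Against PBS, LGG gave -0.26 (-0.39 to -0.13) for Eln and -0.30 (-0.43 to -0.16) for Fbn1. Fbn2, the other fibrillin, was at 5.68 CPM untreated, 3.93 with PBS, 3.34 with E. coli and 2.94 with LGG.

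The fibulins and microfibril-associated proteins were mostly closer together. Efemp2, the fibulin-4 gene that recruits lysyl oxidase to elastin, was at 16.1 CPM untreated and 17.4 after each gavage, a difference within counting error. Fbln1 was at 137 CPM untreated, 139 with PBS, 147 with E. coli and 136 with LGG. Fbln5, which tethers elastin to cells, was at 16.1 CPM untreated, 16.4 with PBS, 14.1 with E. coli and 11.7 with LGG. LGG was the library that stood low, at a log2 ratio of -0.49 (-0.72 to -0.25) against PBS. Fbln2 was at 38.3, 32.4, 30.5 and 27.7 CPM and Mfap5 at 9.33 to 11.0. Mfap4 was at 31.3 CPM untreated, 25.4 with PBS, 22 with E. coli and 27.4 with LGG, so here the E. coli library was lowest.

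The 5 lysyl oxidases did not move alike. Lox, the founding enzyme of the family (NM_010728, chromosome 18, 52675714 to 52689477 in mm9), was at 13.0 CPM untreated, 5.17 with PBS, 4.99 with E. coli and 4.65 with LGG, from 371, 83, 145 and 136 counts. Its log2 ratios to the untreated library were -1.33 (-1.69 to -0.98), -1.38 (-1.67 to -1.10) and -1.48 (-1.78 to -1.196), and the gavaged libraries did not differ beyond counting error. Loxl1, needed for elastin renewal, was at 33.7 CPM untreated, 24.1 with PBS and 22.4 with either bacterium, which puts LGG and E. coli at -0.59 against untreated, just past 1.5-fold. For LGG that call was lost with DESeq2 size factors or a prior of 5 counts. Loxl2, which also acts on collagen IV, was the most abundant enzyme, at 101 CPM untreated, 89.9 with PBS, 90.1 with E. coli and 80.6 with LGG. Loxl3 was at 14.3, 14.0, 13.4 and 13.3 CPM and Loxl4 at 4.55, 5.36, 5.03 and 4.17, and their intervals included 0 in all pairs.

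Adamts4 and Spon2 are neither fibre proteins nor cross-linking enzymes, and the list that holds them was drawn up with results of these libraries known. Adamts4, a protease that cuts aggrecan and versican (NM_172845, chromosome 1, 173180553 to 173190053 in mm9), had 130 counts untreated, 8 with PBS, 16 with E. coli and 13 with LGG. That is 4.55 CPM against 0.444 to 0.551, and log2 ratios of -3.14 (-4.43 to -2.17), -3.01 (-3.90 to -2.29) and -3.31 (-4.31 to -2.53) in the PBS, E. coli and LGG libraries. Spon2, a secreted protein that binds bacteria and integrins, was at 65.7 CPM untreated, 30.7 with PBS, 25.1 with E. coli and 29.7 with LGG. Its log2 ratios to the untreated library were -1.10 (-1.25 to -0.96), -1.39 (-1.51 to -1.26) and -1.14 (-1.26 to -1.03) in the PBS, E. coli and LGG libraries. The gavaged libraries lay far under the untreated one for both genes.

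**Figure D2:**
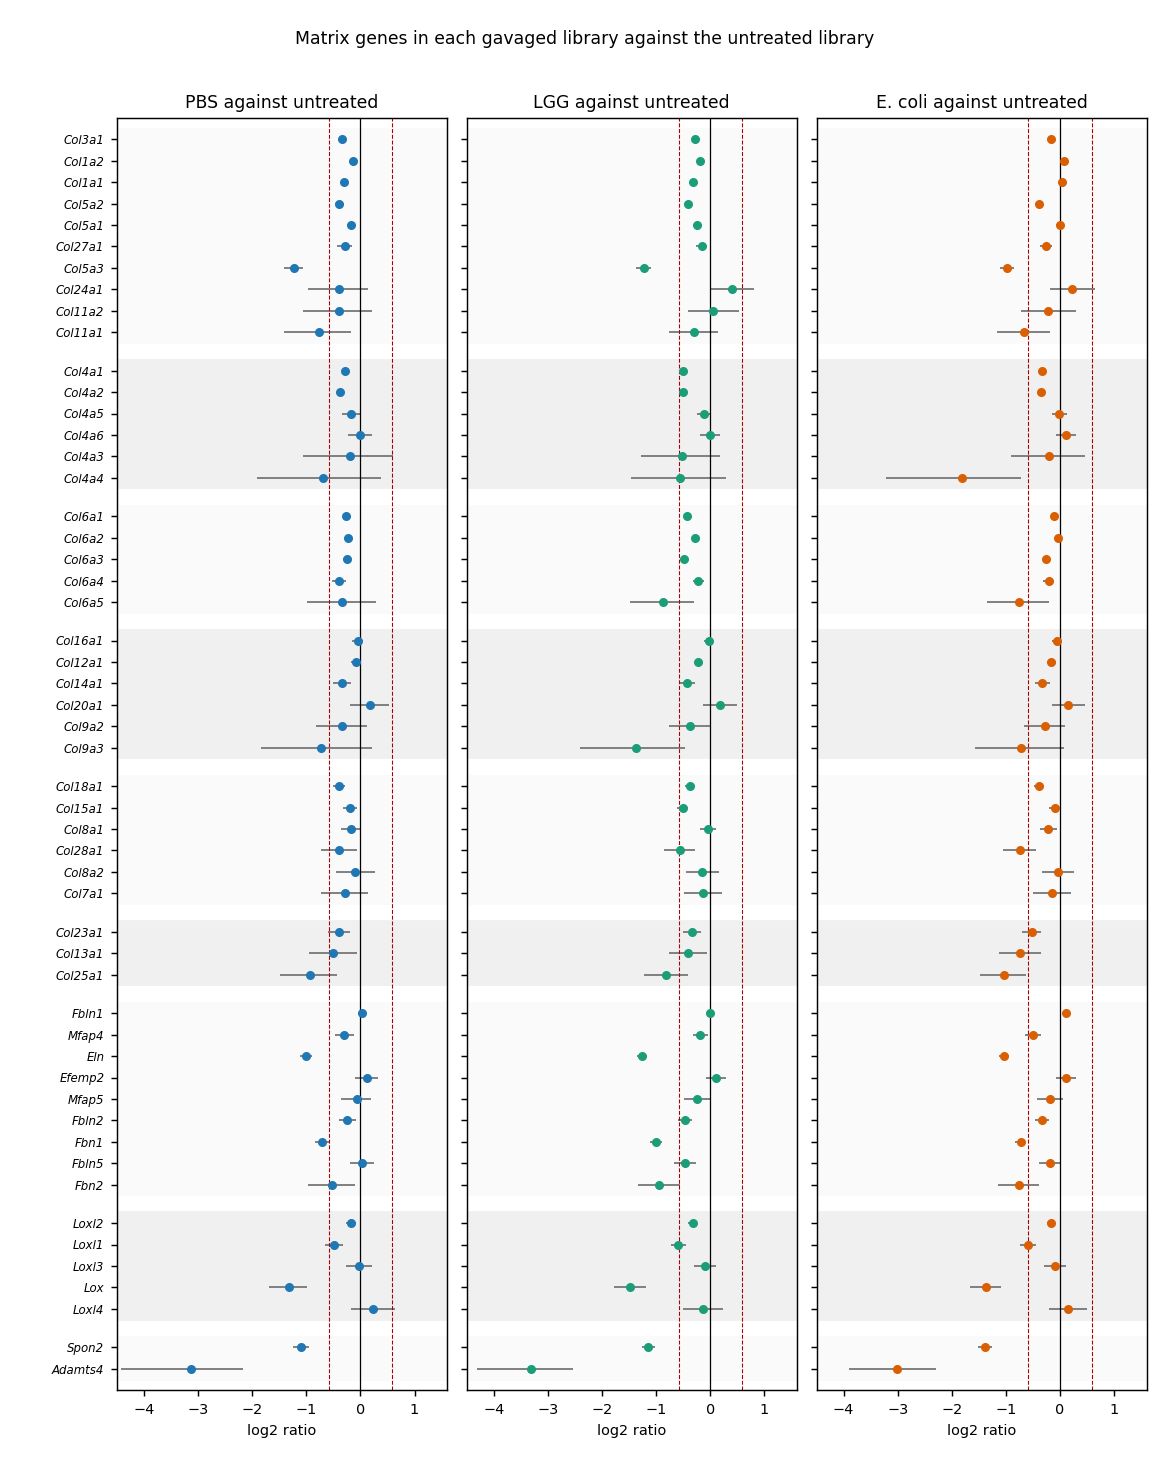
Log2 ratio of each of the 52 genes in the PBS, LGG and E. coli libraries against the untreated library, with 95% counting intervals as bars, grouped by role in the same order as the plot of levels. Dashed lines mark a 1.5-fold difference. Most points lie a little left of 0, and Adamts4, Lox, Eln, Spon2, Col5a3, Col25a1, Col9a3 and Fbn1 lie beyond the left dashed line in all 3 panels, Col9a3 with bars that reach 0 for PBS and E. coli.

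Set against the untreated library, the median log2 ratio of the 52 genes was -0.30 after PBS, -0.36 after LGG and -0.24 after E. coli, with 47, 48 and 44 genes below 0. Over all 15289 genes the medians were 0.00, -0.01 and 0.00, with 50.1%, 50.8% and 49.6% below 0. A gene was counted as past a size rule when its ratio reached 1.5-fold or 2-fold and its interval excluded 0. After PBS, 8 of the 52 genes were lower by 1.5-fold or more, against 3.7% of all genes, and 5 by 2-fold or more, against 1.1%. The 8 were Adamts4, Lox, Col5a3, Spon2, Eln, Col25a1, Col11a1 and Fbn1. After LGG the counts were 11 (3.96% of all genes) and 7 (0.988%), and after E. coli 14 (5.8%) and 6 (1.96%). For LGG they were the 8 less Col11a1, with Col6a5, Col9a3, Fbn2 and Loxl1 in addition. For E. coli they were the 8 with Col4a4, Col6a5, Col13a1, Col28a1, Fbn2 and Loxl1. Requiring at least 0.5 CPM in every library, a filter added after seeing the data, leaves 49 genes. The counts lower by 1.5-fold were then 7 after PBS, 9 after LGG and 12 after E. coli, and at 2-fold 4, 5 and 4. Adamts4 was lost in each pair, Col9a3 in LGG and Col4a4 in E. coli. The shares of all genes under that filter were not computed. None of the 52 was higher by 1.5-fold in these pairs, where the shares of all genes were 2.41%, 1.69% and 2.94%, or 0.798%, 0.576% and 1.01% at 2-fold. Since the untreated library enters all 3 pairs and the list was chosen with these ratios known, nothing further is read from the counts.

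The gavaged libraries differed little among themselves in these genes. In LGG against PBS the median was -0.05, with 33 of 52 genes below 0 (all genes 50.7%), and 1 gene, Col24a1, was higher by 1.5-fold or more (0.831% of all genes). In E. coli against PBS it was 0.00, with 26 below 0 (all genes 49.3%), and Col24a1 was again the only gene past 1.5-fold (0.504% of all genes). In LGG against E. coli it was -0.10, with 34 below 0 (all genes 50.3%), and Col4a4 was higher by 2-fold or more (all genes 1.47% at 1.5-fold and 0.432% at 2-fold). No member was lower by 1.5-fold in these pairs, where 0.85%, 1.08% and 0.948% of all genes were, or 0.196%, 0.366% and 0.203% at 2-fold. None was higher by 2-fold against PBS, where 0.262% of all genes were in LGG and 0.216% in E. coli.

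Within that narrow range, abundant genes had differences larger than their counting error. All 10 fibril-forming genes had ratios above 0 in E. coli against PBS, with a median of 0.18, where 49.3% of all genes were below 0. This held under each of the 4 scalings tried, which shift every gene alike and so are not separate support. Col1a1 was at 0.35 (0.30 to 0.39), Col1a2 at 0.21 (0.17 to 0.26), Col3a1 and Col5a1 at 0.17, and Col5a2 at 0.01 (-0.08 to 0.10). The intervals of Col27a1, Col11a1 and Col11a2 also included 0. Col6a1 and Col6a2 were also above 0 there, at 0.14 and 0.20. Lower beyond counting error in that pair were Spon2 at -0.29 (-0.45 to -0.12) and Mfap4 at -0.21 (-0.39 to -0.03). In LGG against PBS the fibrillar genes gave a median of 0.03, and Col1a1 was at -0.02 (-0.07 to 0.03). Col1a2, at -0.06 (-0.10 to -0.02), was the only fibrillar gene lower beyond counting error in that pair. The other genes lower there were Col4a1 at -0.21 (-0.26 to -0.16), Col4a2 at -0.12, Col6a1 at -0.16, Col6a3 at -0.22 (-0.29 to -0.15), Col12a1 at -0.15, Loxl2 at -0.16, Fbln2 at -0.22, and Col15a1, Fbn1, Eln and Fbln5 as given above. Higher beyond counting error in LGG against PBS were Col3a1 at 0.05 (0.02 to 0.08), Col6a4 at 0.18 (0.05 to 0.31) and Col24a1 as given above. Whether replicate mice would spread by as much as these differences was not measured.

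**Figure D3:**
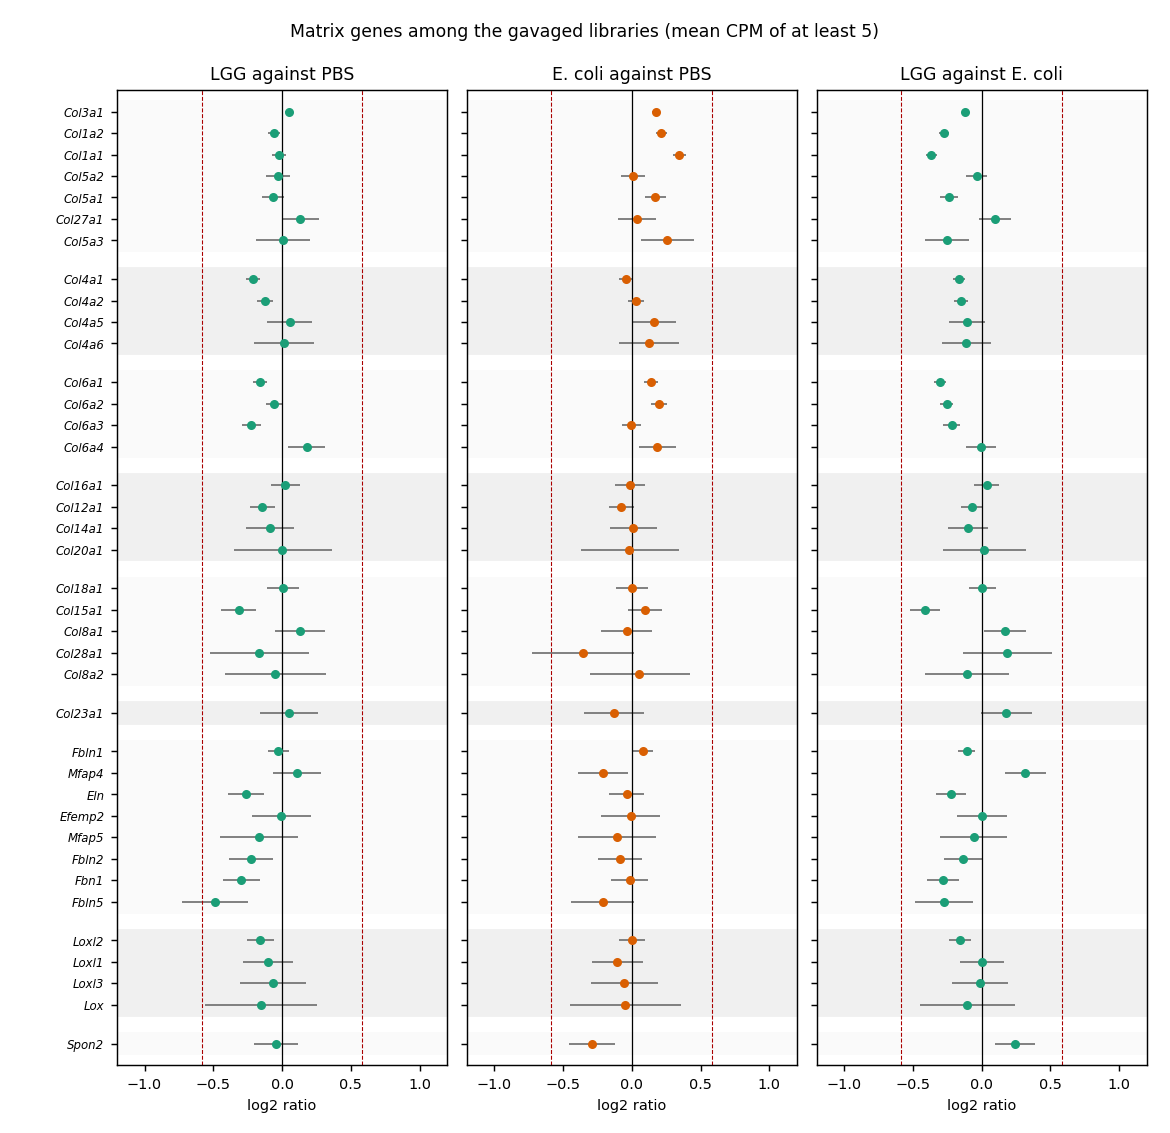
Log2 ratios of the members with a mean of at least 5 CPM in the 3 pairs of gavaged libraries, with 95% counting intervals as bars and dashed lines at a 1.5-fold difference. No point passes the dashed lines. Col1a1, at 0.35, is the rightmost point in the middle panel, and Fbln5, at -0.49, the leftmost in the left panel.

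Ratios between genes of the same library do not depend on the scaling, and they show which chains changed unequally. Per length, Col1a1 stood at 0.858 (0.836 to 0.880) of Col1a2 untreated, 0.761 (0.734 to 0.790) with PBS, 0.833 (0.813 to 0.854) with E. coli and 0.782 (0.761 to 0.804) with LGG. Col3a1 was 2.61 times Col1a1 untreated, 2.55 with PBS, 2.26 (2.21 to 2.31) with E. coli and 2.68 with LGG, so E. coli stood apart. Col5a3 was 0.455 (0.428 to 0.483) of Col5a1 in the untreated library and 0.219 to 0.232 in the gavaged ones. Lox was 0.136 (0.121 to 0.151) of Loxl2 in the untreated and 0.0585 to 0.0609 in the gavaged libraries. Eln was 3.61 times Fbn1 in the untreated and 2.90 to 3.01 times in the gavaged libraries.

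**Figure D4:**
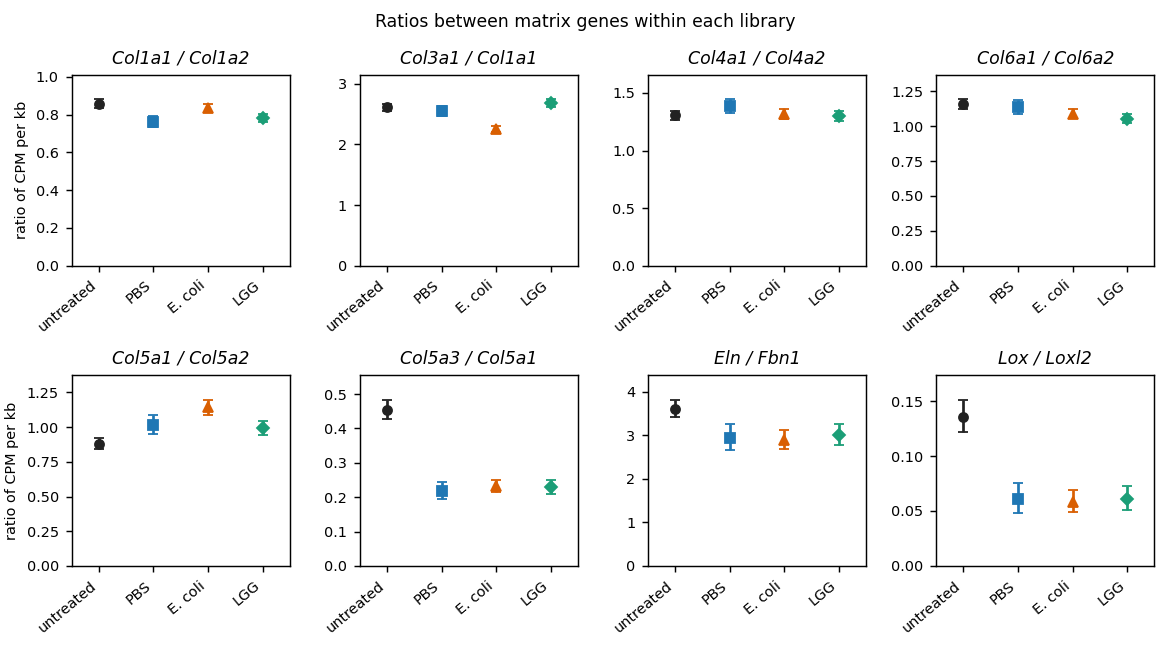
Ratios of CPM per kb between pairs of matrix genes in each of the 4 libraries, with 95% counting intervals as error bars and axes starting at 0. Col5a3 over Col5a1 and Lox over Loxl2 are about level in the 3 gavaged libraries (0.219 to 0.232 and 0.0585 to 0.0609) and higher in the untreated one (0.455 and 0.136).

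Genes that process collagen had medians nearer 0 than the fibre genes, at -0.01, -0.12 and -0.08 after PBS, LGG and E. coli against untreated. Of 28 genes for collagen synthesis and processing, all measured, none was past 1.5-fold in PBS or E. coli against untreated. There 3.7% and 5.8% of all genes were lower by that much, and 2.41% and 2.94% higher. In LGG against untreated 2 were lower (3.96% of all genes), Adamts14 (-0.99), which trims procollagen, and the prolyl hydroxylase Leprel1 (-0.69). The highest ratios, short of 1.5-fold, were P4ha1 after PBS (0.54) and Serpinh1 after LGG (0.37) and E. coli (0.32). The summed level of the 28 genes was 1933 CPM untreated and 2025 to 2059 after gavage, lowest in the untreated library. Most of the 28 went the other way, with 16 below untreated after PBS, 19 after LGG and 19 after E. coli. Of all genes, 50.1%, 50.8% and 49.6% were below untreated in that order. P4hb, a subunit of the collagen hydroxylase, was at 592 CPM untreated and 607 to 641 after gavage. Among 27 matrix proteases and inhibitors, Adamts15 (0.91) and Adamts8 (0.69) were higher, and Mmp13 (-0.75) and Mmp28 (-0.71) lower, in PBS set against untreated. Mmp3 (stromelysin-1) was lower against untreated after LGG (-1.02) and E. coli (-0.69), and Adamts15 was higher in E. coli against untreated (0.81). The small leucine-rich proteoglycans, which coat collagen fibrils, had 1 of 12 genes past 1.5-fold against untreated, Ecm2 after PBS (-0.60), where 3.7% of all genes were lower. Decorin (Dcn) was at 250 CPM untreated and 174 to 185 after gavage.

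Basement membrane partners of collagen IV (17 genes) had medians of -0.16 after PBS, -0.35 after LGG and -0.20 after E. coli against untreated, where the collagen IV genes had -0.25, -0.50 and -0.27. The laminin chains Lamc3 (-0.94) and Lama2 (-0.67) were lower in LGG against untreated, and perlecan (Hspg2) was at 255 CPM untreated, 224 with PBS, 222 with E. coli and 179 with LGG. Sparc, a collagen-binding chaperone, was level at 420 to 440 CPM. Of 17 further elastic-fibre genes, Fbln7 (-1.02 after E. coli, -0.80 after LGG) and Mfap2 (-0.67 after LGG) were lower than in the untreated library. Of 13 collagen receptors, the integrin genes Itga2 (-0.64 after PBS, -0.96 after E. coli, -0.92 after LGG), Itga10 (-0.73 after PBS) and Itga11 (-0.77 after LGG) were lower. In the TGF-beta list of 21 genes, a pathway that induces collagen genes, the medians were -0.07, -0.14 and -0.01 after PBS, LGG and E. coli against untreated. Cyr61 (0.71 after LGG) was higher, and Thbs1 (-0.69 after LGG, -0.89 after E. coli), Tgfb3 (-0.76) and Thbs2 (-0.59, both after E. coli) were lower. Of all genes, 3.7% were lower by 1.5-fold against untreated after PBS, 3.96% after LGG and 5.8% after E. coli. After LGG 1.69% were higher. Among the gavaged libraries few genes of these lists passed 1.5-fold. Among them were Adamts15 (-0.60), the hydroxylase P4ha3 (-0.66) and the platelet collagen receptor Gp6 (-1.11), lower in LGG against PBS, and Adamtsl2 (0.65), higher in it. Adamts8 (-0.60) was lower in E. coli against PBS, and Lamc3 (-0.60), Adamts14 (-0.88) and Timp4 (-0.88) in LGG against E. coli.

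**Figure D5:**
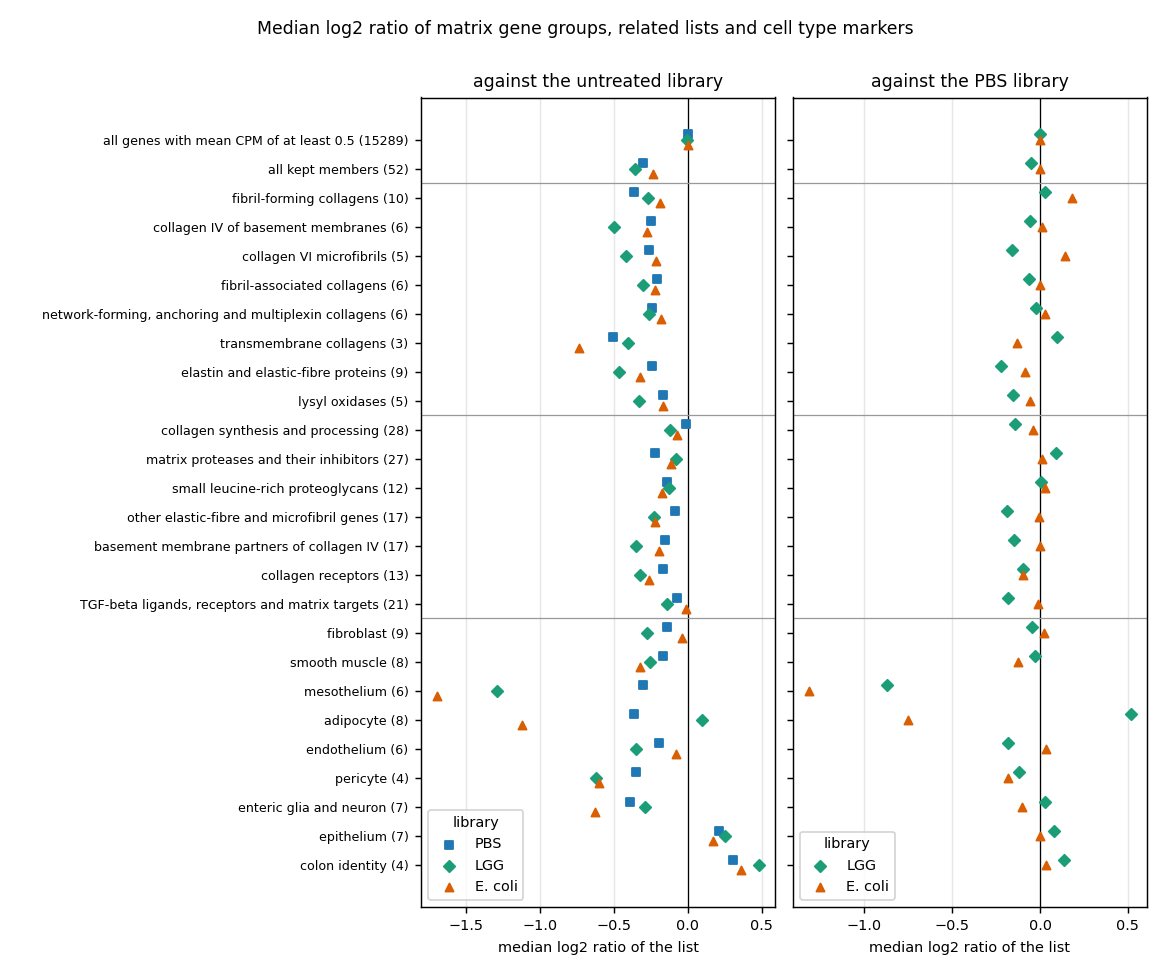
Median log2 ratio of the matrix gene groups, related lists and cell type markers against the untreated library (left) and the PBS library (right), with the number of genes in brackets. All matrix groups lie left of 0 in the left panel, with the 52 genes at -0.30, -0.36 and -0.24, while the epithelial markers lie right of 0, at 0.17 to 0.25. The acinar markers are left out because of their range.

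Cell type markers were set beside these values. Fibroblast markers (9 of 9, of which Col1a1 and Col1a2 are also members) summed to 1502 CPM untreated, 1277 with PBS, 1420 with E. coli and 1256 with LGG. The 7 that are no members summed to 653, 541, 532 and 542 CPM, close together after gavage. The fibroblast markers did not all go one way. Of the 9, 8 were below the untreated library after PBS, 6 after E. coli and 7 after LGG. Pi16 was higher, with log2 ratios of 0.67 (past 1.5-fold), 0.49 and 0.17 in that order. Pericyte markers (4 of 4) were at 302, 212, 180 and 202 CPM, and endothelial markers (6 of 6) at 144, 129, 133 and 113. Mesothelial markers of the serosa (6 of 7, Muc16 not being matched) summed to 36.6, 31.6, 12.7 and 18.7 CPM. None of the markers in these lists was at 0 in any library. Adipocyte markers (8 of 8) summed to 223 CPM untreated, 166 with PBS, 112 with E. coli and 226 with LGG. The part of smooth muscle, fibroblast, pericyte, endothelial, mesothelial and fat cells in the matrix differences was not tested. The position of the piece along the colon cannot be told apart from the treatment.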

How the data were processed

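Per the labels' protocols, RNA was DNase-treated and libraries were prepared with a TruSeq RNA v2 kit. TopHat2, HOMER and the build mm9 are named in the submitters' processing notes; for versions and counting settings, strand included, the sources used here give nothing. Deposited by the authors were expected counts per RefSeq gene, in steps of 0.5, with a listed transcript length. The counts were rounded to whole numbers. Depth was 27220697 counts for untreated, 16289580.0 for PBS, 29368008 for E. coli and 29899371 for LGG.

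CPM and log2 ratios were scaled by TMM factors (edgeR 4.0.16, R 4.3.3), and ratios had a prior of 0.5 counts in proportion to depth. Intervals at 95% are exact (Clopper-Pearson for ratios, Poisson for sums) and cover counting error only, since reads of PCR products are not independent molecules; a 0 was read as up to 3 counts. The interval of a median is that of the genes at the median. No test was possible with 1 library per group. The size rule was checked on simulated counts drawn with counting error alone, so the check does not cover spread between mice or libraries. Computation used Python 3.11.15 (numpy 2.4.6, scipy 1.17.1, pandas 2.3.3) and figures matplotlib 3.10.9. Tried as alternatives were DESeq2 1.42.0 size factors, scaling by totals, upper-quartile factors, a prior of 5 counts, other filters and parts of the list.

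The members and lists were chosen with earlier results of these data known. Genes were named by rule, with a level for every member. More detail went to members past 1.5-fold in a pair, the 3 most abundant per length of each role group and the highest and lowest. Not all of these have every CPM and ratio printed. From other lists up to 4 genes past 1.5-fold were named, or the 2 most abundant. Decorin, Muc2, Slc26a3, Sparc, Hspg2, P4hb, P4ha1 and Serpinh1 fall outside or only partly under this rule where other genes of the list passed. They were chosen after their values were seen. A gene of the TGF-beta list is not reported here by name.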

Additional observations from a re-analysis of the deposited data

How the results depend on the processing

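The medians against the untreated library stayed below 0 under every alternative, at -0.39 to -0.26 after PBS, -0.46 to -0.33 after LGG and -0.32 to -0.20 after E. coli. No called ratio changed sign. Library totals in place of TMM lowered every ratio to the untreated library by 0.08 to 0.10, and with them Col1a1 and Col1a2 in E. coli against untreated were below 0. Genes lower by 1.5-fold against untreated then numbered 10 in place of 8 after PBS. They numbered 15 in place of 11 after LGG, Col4a1 and Col4a2 among those gained, and 17 in place of 14 after E. coli. With a mean of at least 5 CPM, which leaves 38 genes, the genes lower by 1.5-fold against untreated numbered 5 in place of 8 after PBS, 6 in place of 11 after LGG and 7 in place of 14 after E. coli, those lower by 2-fold after E. coli 3 in place of 6, and those higher among the gavaged libraries 0 in place of 1 in each pair, since fewer genes were counted. Col4a4 in LGG against E. coli was lost at 2-fold with a prior of 5 counts (0 genes), and at both sizes with at least 0.5 CPM in every library (0 genes of 49), an alternative added after seeing the data. Loxl1 in LGG against untreated, at -0.59, lost its 1.5-fold call with DESeq2 size factors and with the prior of 5 counts. Depth limits the scarce genes, with Adamts4 at 8 and Col4a4 at 10 counts in the PBS library. No paired analysis was possible because each group has 1 library.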
